A study of Danio rerio with 30 samples.

Results

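Müller glia are the radial glial cells that span the retina, and the genes described here are 10 named markers of what these cells do: glula, glulb, kcnj10a, rlbp1a, gfap, slc1a2b, aqp1a.1, apoeb, cav1 and cav2. Rows were taken by symbol in any letter case, with every row written GLUL or KCNJ10, from 2 deposited tables of 32520 Ensembl genes each. That rule found 9 rows, which cover 8 of the 10 names. For slc1a2b and aqp1a.1 the symbol table gives only SLC1A2 and AQP1, without the paralog letter, so the 4 rows with those symbols are described as well, outside the rule. Together these are 13 rows of 32520. Where a symbol has 2 rows, the row with the higher count in untreated uninjured retinas of the needle poke experiment is called major and the other minor. These are ENSDARG00000099776 (major GLUL), ENSDARG00000100003 (minor GLUL), ENSDARG00000090815 (major KCNJ10), ENSDARG00000105022 (minor KCNJ10), ENSDARG00000102453 (major SLC1A2), ENSDARG00000052138 (minor SLC1A2), ENSDARG00000023713 (major AQP1) and ENSDARG00000091027 (minor AQP1). Which row is the a or the b paralog was not settled from the tables. The other rows are ENSDARG00000012504 (rlbp1a), ENSDARG00000025301 (gfap), ENSDARG00000040295 (apoeb), ENSDARG00000103747 (cav1) and ENSDARG00000052000 (cav2).

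Polyadenylated RNA was sequenced from adult zebrafish (Danio rerio) retinas in 30 libraries, 3 in each of 10 groups, from fish dark adapted overnight. In the needle poke experiment all fish were given as wild type. Every library of both experiments also held counts of egfp, a transgene that no label explains, so a transgenic background of the fish is not named here. Eyes were poked with a needle and the fish were immersed in PLX3397, in ZVAD-fmk or in DMSO, and retinas were taken 2 days after injury. The fourth group was uninjured and untreated, so the poke and the DMSO immersion cannot be told apart. PLX3397 (pexidartinib) is a kinase inhibitor that acts on the CSF1 receptor, ZVAD-fmk is a caspase inhibitor, and DMSO is the solvent. In the NMDA experiment csf1ra mutants, csf1rb mutants and wild-type fish were taken 2 days after intravitreal NMDA or uninjured. NMDA is a glutamate receptor agonist that kills retinal neurons, and csf1ra and csf1rb encode the zebrafish CSF1 receptors on which microglia and macrophages depend. No allele of the mutants is named and no group with an injection of vehicle was analysed, so NMDA and the injection cannot be told apart. The labels do not say if the wild-type fish were siblings of the mutants. A receptor mutation therefore cannot be told apart from other differences between the fish lines, injured or not. The library titles carry the letters MG, while the protocol describes whole retinas triturated in TRIzol and no sorting. The labels do not say if each library is another fish, so a p-value here speaks only to the scatter of the libraries, which may be technical.

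Müller glia take up glutamate released by neurons, turn it into glutamine with glutamine synthetase, carry potassium and water out of the active retina, and recycle retinoids for cones. In zebrafish they also answer injury by re-entering the cell cycle and producing progenitors that replace lost neurons, and during that response they turn down genes of the resting state. GFAP, the glial intermediate filament, is the common sign of an injury response in glia of vertebrate retinas. CSF1 receptor signalling acts mainly on microglia, the resident macrophages of the retina.

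The poke libraries held 38933511 to 92198888 counts each, and those of the NMDA experiment 22849708 to 41622168. Transcripts of other retinal cells were present in every group, at levels that differed by cell type. In the NMDA experiment the 16 cone marker genes summed to 1343 to 2098 CPM in csf1rb mutants after NMDA, their lowest group by median. There they summed to 7929 to 10103 CPM in uninjured wild type, their highest. The needle poke experiment was scaled on its own. In it they summed to 4768 to 6524 CPM with ZVAD-fmk, their lowest group by median, and to 12917 to 17356 CPM with DMSO, their highest. Bipolar markers summed to 393 to 519 CPM in csf1ra mutants after NMDA, and horizontal cell markers to 23.0 to 28.6 CPM in wild type after NMDA. In uninjured libraries of the needle poke experiment major GLUL averaged 14868 CPM and apoeb 11433.5 CPM. The 18 rod markers summed to 4744 to 6172 CPM in the same libraries. Whether the libraries hold whole retina or cells enriched for Müller glia was not tested. The transcript of csf1ra was at 1.27 to 1.45 CPM in csf1ra mutants after NMDA, against 6.68 to 7.47 CPM in wild type after NMDA. It was at 0.162 to 0.316 CPM in uninjured csf1ra mutants, against 3.92 to 4.34 CPM in uninjured wild type. The transcript of csf1rb was at 0 to 0.0353 CPM in csf1rb mutants after NMDA, against 0.268 to 0.373 CPM in wild type after NMDA. Uninjured, csf1rb was at 0.0573 to 0.370 CPM in csf1rb mutants, against 0.330 to 0.793 CPM in wild type, and these ranges overlapped. In the mutant of the other receptor gene each transcript was below the wild-type range too: csf1rb was at 0.0705 to 0.142 CPM after NMDA and 0.0369 to 0.175 CPM uninjured in csf1ra mutants, and csf1ra at 3.30 to 4.13 CPM after NMDA and 1.03 to 1.89 CPM uninjured in csf1rb mutants. In the needle poke experiment a library of each group is called the one that stood apart. These 4 are uninjured replicate 2, DMSO replicate 3, PLX3397 replicate 2 and ZVAD-fmk replicate 1. Each was the farthest from the rest of its group on the third principal component, which held 9.37% of the variance. There uninjured replicate 2 scored 95.6 and the other uninjured libraries -38.7 and -35.5. DMSO replicate 3 scored 18.4 against -30.7 and -31.1 in the other DMSO libraries. PLX3397 replicate 2 scored 27.7 against -28.5 and -11.1. ZVAD-fmk replicate 1 scored 18.5 against 6.92 and 8.48. On this component ZVAD-fmk replicate 1 lay closer to its group than the other 3 did to theirs. On the first component too it lay near its group, at -53.8 against -48.0 and -49.3, so it stood apart little. DMSO replicate 3 stood apart on the second component as well, which held 19.7% of the variance. There it scored 123.4 against 60.5 and 58.2 in the other DMSO libraries. Counts of called members are also given without these 4 libraries.

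**Figure D1:**
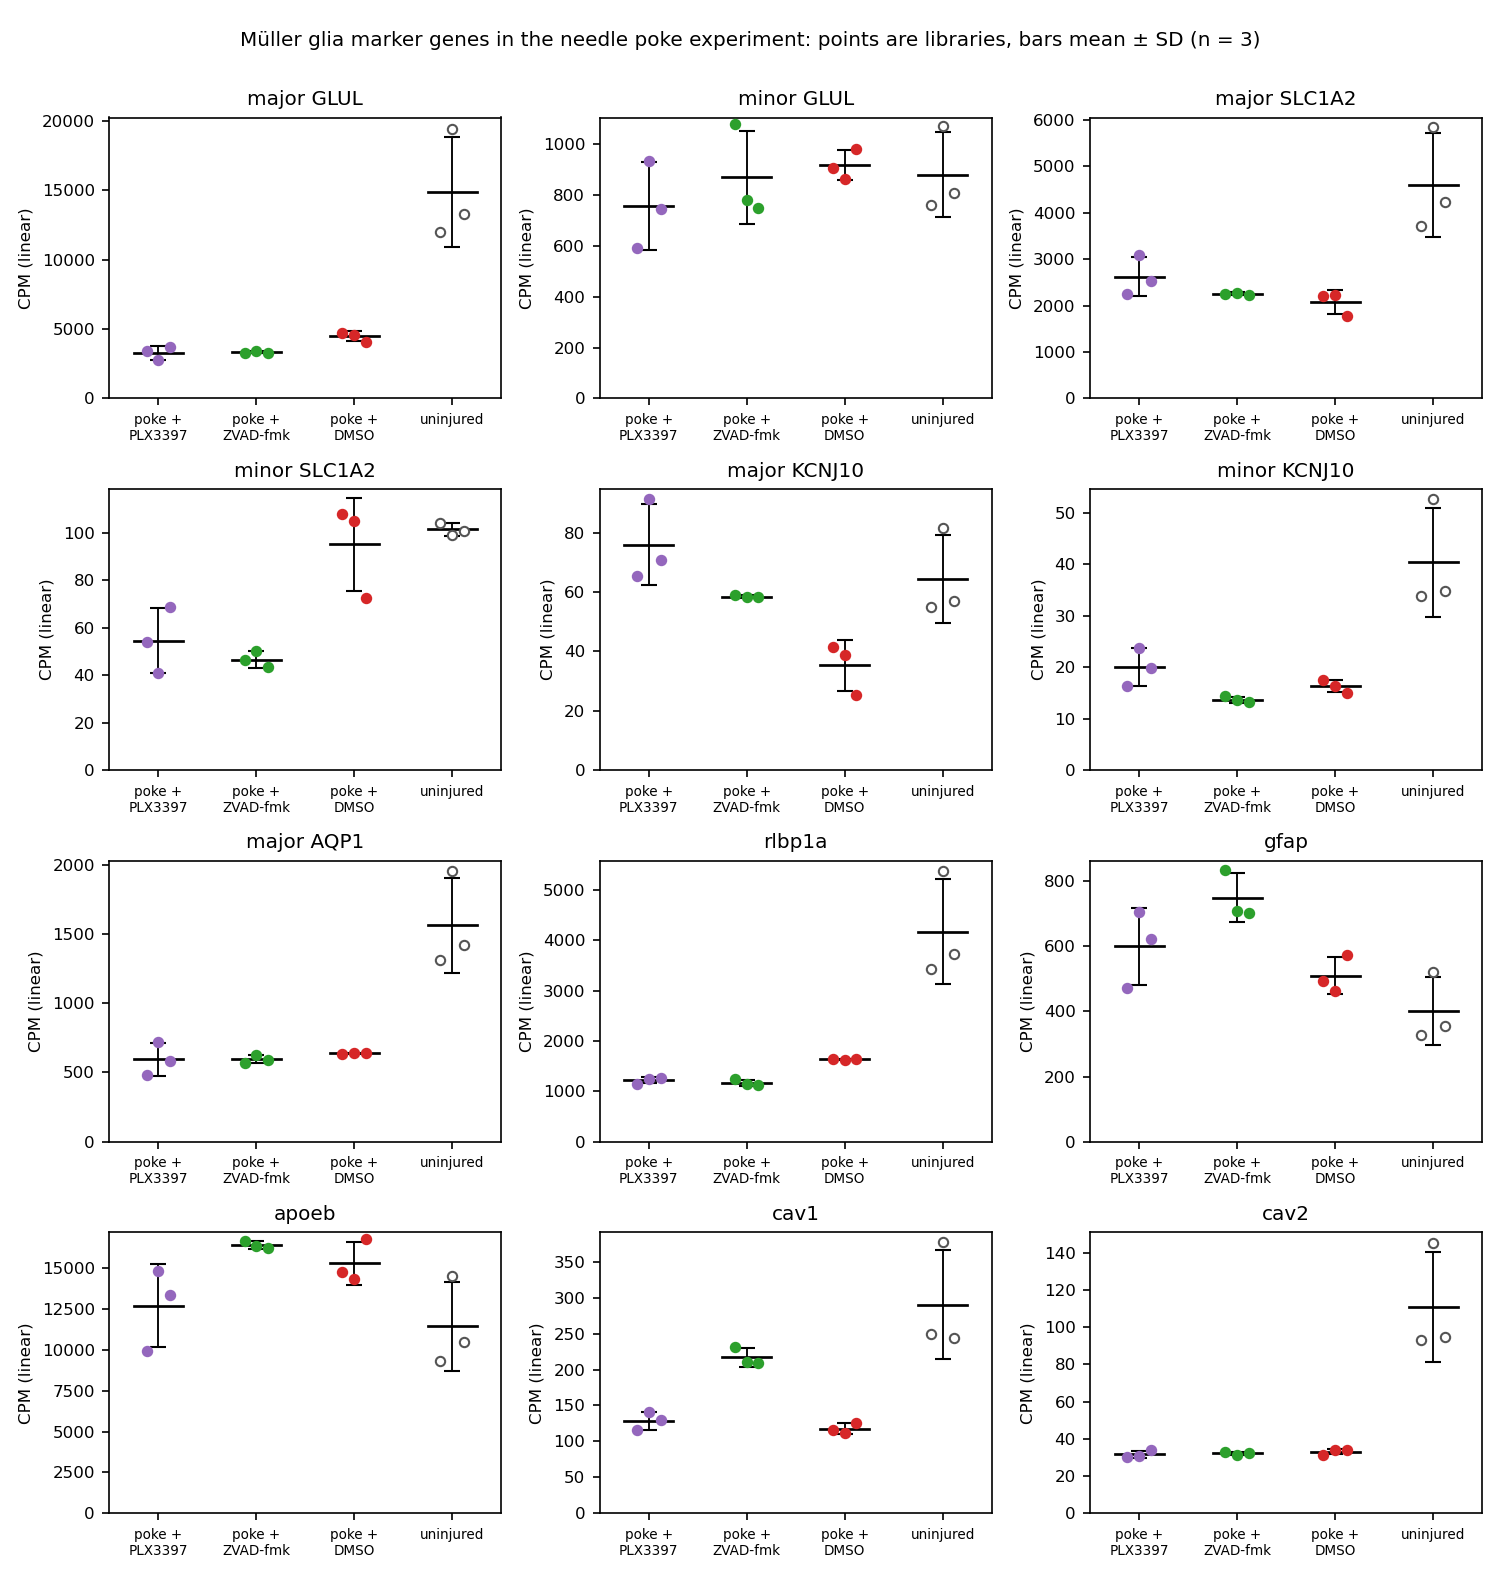
CPM of 12 rows in each library of the needle poke experiment (linear axes from 0; one point per library, line and bar mean ± SD, n = 3 per group). Major GLUL, rlbp1a, major AQP1 and cav2 lie lower in every injured library than in every uninjured library, and cav1 lies higher with ZVAD-fmk than with PLX3397 or DMSO.

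Most of these genes were lower after needle poke with DMSO. Relative to untreated uninjured retinas, 8 of 13 rows fell and 0 rose, where 13.4% of all 21334 genes tested fell and 18.2% rose (31.6% either way). Of the 9 rows found by the rule, 6 fell. The median log2 fold change of the 13 rows was -1.15, beside -0.026 over all genes tested. Here and below a gene is called at a Benjamini-Hochberg adjusted p under 0.05 in edgeR's quasi-likelihood test, a value after ± beside a log2 fold change is its approximate SE, and levels are CPM, counts scaled to library size with TMM factors. Fewer Müller cells among those sequenced and less RNA per cell cannot be told apart. Dividing cell markers summed to 1834 to 2292 CPM after poke with DMSO, against 73.3 to 91.4 CPM uninjured, and genes of Müller glia reprogramming to 3027 to 3336 CPM, against 1689 to 1987 CPM uninjured. Erythrocyte markers summed to 1424 to 1522 CPM after poke with DMSO, against 2558 to 4544 CPM uninjured, and oligodendrocyte markers to 127 to 166 CPM, against 209.7 to 376 CPM uninjured. The part of these lists was not tested. Without the 4 libraries that stood apart, 10 rows were called, which adds rises of gfap (0.50, adjusted p = 0.0023) and apoeb (0.57, adjusted p = 9.9e-04). Leaving out the farthest library of each group narrows the spread by construction, so these adjusted p-values are not evidence of the rises. Of the 6 fits that left out 1 library, gfap and apoeb were each called in only 1.

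Glutamine synthetase turns glutamate and ammonia into glutamine. Major GLUL stood at 4736, 4591 and 4054 CPM with poke and DMSO, against 11959, 19389 and 13254 CPM in uninjured retinas. Every injured library was below every uninjured one, a 3.33-fold fall (log2 fold change -1.74 ± 0.21 SE, adjusted p = 4.1e-05). Minor GLUL showed no such difference, with 907, 863 and 981 CPM after poke with DMSO, against 759, 1069 and 808 CPM uninjured. Its groups overlapped, and the log2 difference of 0.062 (95% CI -0.38 to 0.50, adjusted p = 0.85) had an interval apart from that of major GLUL (-2.20 to -1.27). Within each library the count of major GLUL over that of minor GLUL was 5.22, 5.32 and 4.13 with DMSO, against 15.8, 18.1 and 16.4 uninjured. The ratio needs no scaling between libraries, and its ranges did not overlap (exact two-sided permutation p = 0.1, the smallest that 3 against 3 libraries allow, and 0.123 adjusted over 16 ratio tests).

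SLC1A2 is a sodium-driven glutamate transporter of the plasma membrane. Major SLC1A2 fell 2.21-fold, with 2215, 2227 and 1786 CPM after poke with DMSO, against 3703, 5847 and 4239.8 CPM uninjured (log2 fold change -1.15 ± 0.20 SE, adjusted p = 6.5e-04). All injured libraries lay below all uninjured ones. Minor SLC1A2 had 108, 105 and 72.6 CPM after poke with DMSO, against 104, 99.2 and 101 CPM uninjured, and was not called (-0.092 ± 0.18, adjusted p = 0.75). Only DMSO replicate 3, one of the libraries that stood apart, was below the uninjured range.

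KCNJ10 is the inwardly rectifying potassium channel Kir4.1, through which glia carry away potassium. Major KCNJ10 had 41.6, 38.9 and 25.4 CPM after poke with DMSO, against 54.9, 81.6 and 57.1 CPM uninjured (log2 fold change -0.87 ± 0.20 SE, adjusted p = 0.0043). Minor KCNJ10 averaged 16.3 ± 1.23 CPM after poke with DMSO, against 40.4 ± 10.6 CPM uninjured (SD, n = 3 each; log2 fold change -1.31 ± 0.18 SE, adjusted p = 1.0e-04). Both rows were lower in all 3 injured libraries. AQP1 is a water channel, and major AQP1 had 633, 637 and 643 CPM after poke with DMSO, against 1312, 1955 and 1424 CPM uninjured (log2 fold change -1.29 ± 0.18 SE, adjusted p = 1.1e-04). The injured libraries differed from each other by little and lay far below the uninjured ones. Minor AQP1 was near 0 throughout, with 0, 0.730 and 0.318 CPM in the PLX3397 libraries, its highest group, and was called in none of the 5 comparisons of this experiment.

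RLBP1 is the cellular retinaldehyde-binding protein, which holds visual cycle retinoids in the glia. Rlbp1a stood at 1638, 1622 and 1649 CPM after poke with DMSO, against 3422, 5363 and 3717 CPM uninjured. The DMSO libraries lay within a narrow band below every uninjured library, a 2.55-fold fall (log2 fold change -1.35 ± 0.18 SE, adjusted p = 6.7e-05). The filament gene gfap had 495, 464 and 572 CPM after poke with DMSO, against 329, 521 and 357 CPM uninjured. These ranges overlapped through uninjured replicate 2, and gfap was not called (0.34 ± 0.20, adjusted p = 0.21), but was called without uninjured replicate 2 (0.59, adjusted p = 0.027). Apoeb, an apolipoprotein E that carries lipid, had 14767, 14296 and 16770.1 CPM after poke with DMSO, against 9325, 14515 and 10461 CPM uninjured. It too overlapped through uninjured replicate 2 and was not called (0.42 ± 0.22, adjusted p = 0.18), but was called without uninjured replicate 2 (0.64, adjusted p = 0.037). For gfap and apoeb that library was the highest uninjured one, so leaving it out lowers the uninjured mean by construction. The gained calls are therefore not evidence of a rise, and neither gene was called in the other 5 fits that left out 1 library.

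Caveolins form the coat of caveolae, the small pits of the plasma membrane. Cav1 had 115, 112 and 126 CPM after poke with DMSO, against 249, 377 and 244 CPM uninjured (log2 fold change -1.30 ± 0.16 SE, adjusted p = 4.5e-05). Cav2 had 31.4, 33.8 and 34.1 CPM after poke with DMSO, against 93.2, 145 and 94.6 CPM uninjured (log2 fold change -1.75 ± 0.15 SE, adjusted p = 2.5e-06). For both, all 3 injured libraries lay below all uninjured ones. The count of cav1 over that of cav2 was 3.67, 3.32 and 3.70 with DMSO, against 2.68, 2.60 and 2.58 uninjured, without overlap (exact two-sided permutation p = 0.1, 0.123 adjusted). In the RefSeq gene list of another zebrafish assembly (GRCz12tu) cav1 and cav2 are neighbours on chromosome 25 with 0 protein-coding genes between them.

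With either drug most of the 13 rows were also lower after poke than in uninjured retinas, though not all the same rows as with DMSO. Set against uninjured retinas, 8 of 13 rows were lower and 1 higher with poke and PLX3397, where 19.9% of genes tested were lower and 23.0% higher (42.9% either way). With poke and ZVAD-fmk 7 were lower and 1 higher, where 18.6% of genes tested were lower and 21.9% higher (40.5% either way). Of the 9 rows found by the rule, 5 were lower and 1 higher with PLX3397. With ZVAD-fmk 4 of these 9 were lower, 1 was higher and 4 were not called. These 2 comparisons and that of DMSO share the same uninjured libraries. Major GLUL was 4.52-fold lower with PLX3397 (-2.18 ± 0.22, adjusted p = 6.0e-06) and 4.47-fold lower with ZVAD-fmk (-2.16 ± 0.22, adjusted p = 6.1e-06). Gfap was higher than in uninjured retinas with ZVAD-fmk (0.90 ± 0.20, adjusted p = 0.0027) and with PLX3397 (0.58 ± 0.20, adjusted p = 0.031). Its call with PLX3397 was lost without uninjured replicate 1 (0.45, adjusted p = 0.12), without uninjured replicate 3 (0.51, adjusted p = 0.11), without PLX3397 replicate 2 (0.45, adjusted p = 0.1) and without PLX3397 replicate 3 (0.55, adjusted p = 0.08), and when only those 2 groups were fitted (0.57, adjusted p = 0.078). Minor SLC1A2 was lower than in uninjured retinas with PLX3397 (-0.89 ± 0.18, adjusted p = 0.0014) and with ZVAD-fmk (-1.12 ± 0.18, adjusted p = 2.8e-04), though not with DMSO. Cav1 was lower with PLX3397 (-1.17 ± 0.16, adjusted p = 7.6e-05) and was not called with ZVAD-fmk (-0.42 ± 0.16, adjusted p = 0.052), where it was called without uninjured replicate 1 (-0.51, adjusted p = 0.035) and without uninjured replicate 3 (-0.53, adjusted p = 0.035). Both libraries were below uninjured replicate 2 for cav1, so leaving out either raises the uninjured mean by construction. These gained calls of cav1 are therefore not evidence of a fall with ZVAD-fmk. Major KCNJ10 was called against uninjured retinas with neither drug (0.23 ± 0.20, adjusted p = 0.37 with PLX3397 and -0.14 ± 0.20, adjusted p = 0.6 with ZVAD-fmk).

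**Figure D2:**
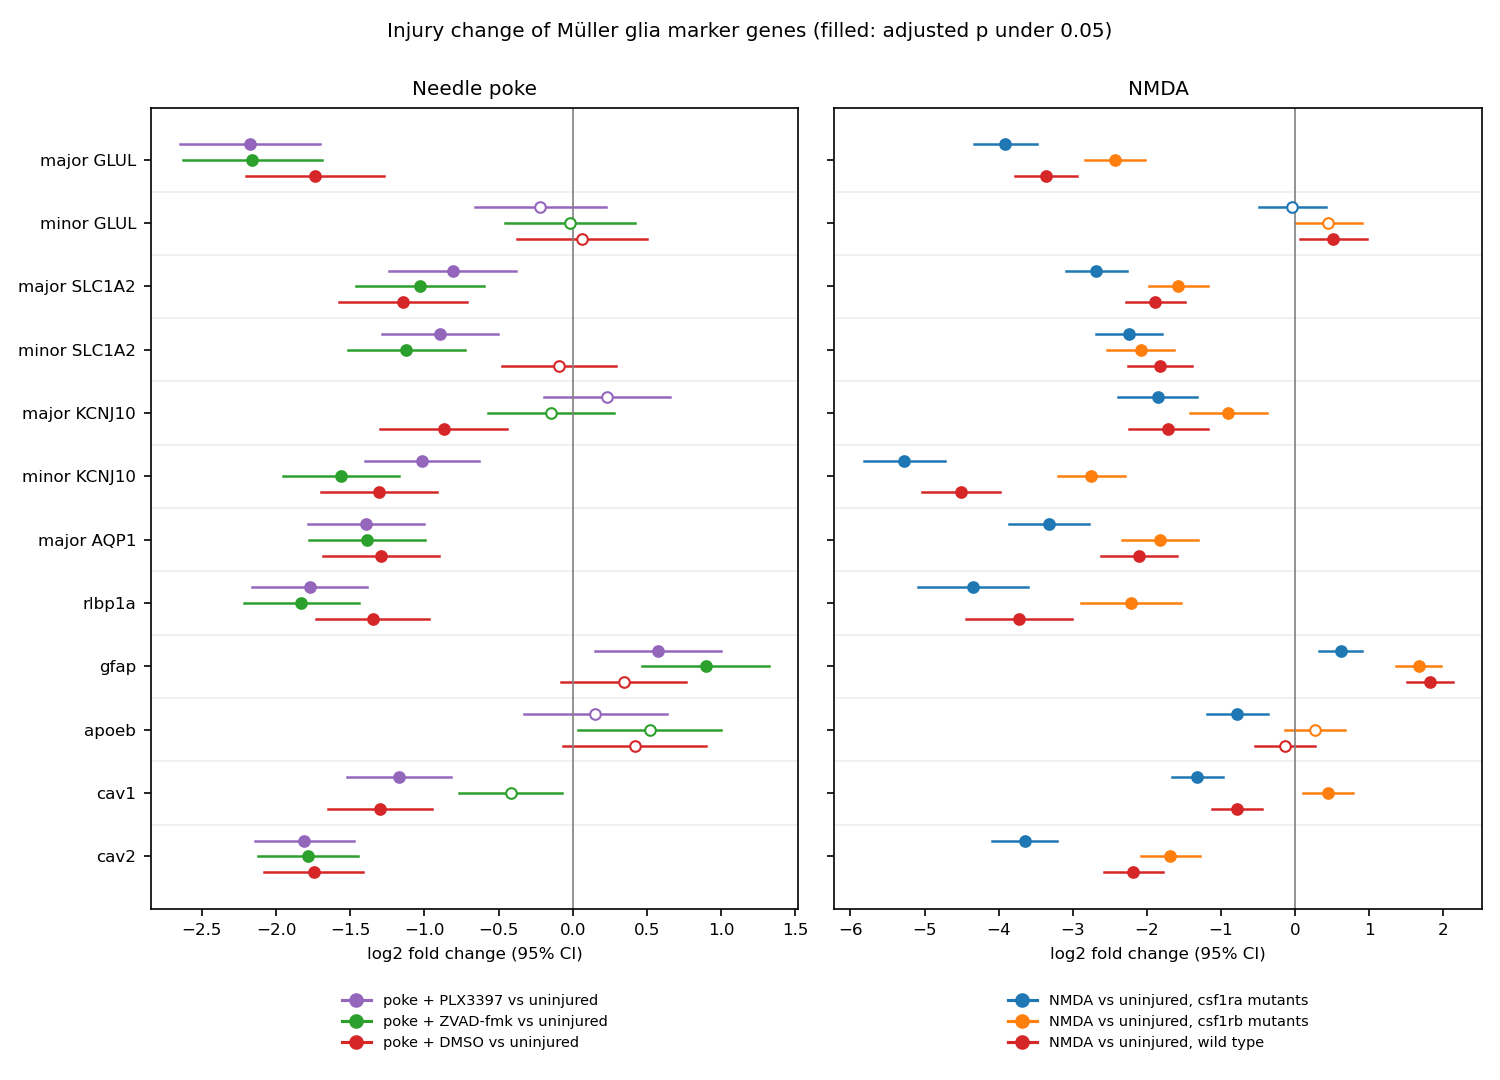
Log2 fold change of each row after injury against uninjured retinas (points, with bars for the 95% CI; filled points have an adjusted p under 0.05), for needle poke with 3 treatments (left) and NMDA in 3 genotypes (right). Most rows lie left of 0, and gfap lies right of 0 in all 6 comparisons.

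The direct comparison of each drug with DMSO asked what the drugs changed in the injured retina, and few of these rows differed. With PLX3397 1 of 13 rows was higher and 1 lower than with DMSO, where 16.5% of genes tested were higher and 17.7% lower (34.2% either way). With ZVAD-fmk 2 were higher and 1 lower, where 9.7% of genes tested were higher and 8.96% lower (18.7% either way). These counts are close to or below the shares over all genes. Without the 4 libraries that stood apart 6 rows were called for each drug, but leaving out the farthest library of each group narrows the spread by construction and leaves 2 a group. Calls gained in this way included lower values for major GLUL with PLX3397 (-0.37, adjusted p = 0.0018) and ZVAD-fmk (-0.48, adjusted p = 4.6e-04) and for rlbp1a with PLX3397 (-0.42, adjusted p = 6.5e-04) and ZVAD-fmk (-0.52, adjusted p = 1.8e-04). For rlbp1a the levels were 1146, 1245 and 1265 CPM with PLX3397 and 1239, 1147 and 1129.7 CPM with ZVAD-fmk, against 1638, 1622 and 1649 CPM with DMSO. Every drug library was below every DMSO library, though neither difference passed over all libraries (-0.42 ± 0.17, adjusted p = 0.077 for PLX3397 and -0.48 ± 0.17, adjusted p = 0.072 for ZVAD-fmk). Neither rlbp1a nor major GLUL was called for either drug in any of the 6 fits that left out 1 library.

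Major KCNJ10 was higher with both drugs. It stood at 65.4, 91.4 and 71.0 CPM with PLX3397 and 58.9, 58.2 and 58.2 CPM with ZVAD-fmk, against 41.6, 38.9 and 25.4 CPM with DMSO. All drug libraries were above all DMSO libraries, by 2.15-fold with PLX3397 (log2 fold change 1.1041 ± 0.20 SE, adjusted p = 9.5e-04) and 1.65-fold with ZVAD-fmk (log2 fold change 0.73 ± 0.20 SE, adjusted p = 0.022). The ZVAD-fmk call was lost without DMSO replicate 3 (0.54, adjusted p = 0.066), without ZVAD-fmk replicate 1 (0.72, adjusted p = 0.065), without ZVAD-fmk replicate 2 (0.73, adjusted p = 0.06) and without ZVAD-fmk replicate 3 (0.73, adjusted p = 0.062). Minor SLC1A2 was lower with both drugs, at 53.9, 41.1 and 68.7 CPM with PLX3397 and 46.2, 50.3 and 43.4 CPM with ZVAD-fmk, against 108, 105 and 72.6 CPM with DMSO. No drug library reached the lowest DMSO library (log2 fold change -0.80 ± 0.18 SE, adjusted p = 0.0041 for PLX3397 and log2 fold change -1.03 ± 0.18 SE, adjusted p = 0.0019 for ZVAD-fmk). Beside this, the 16 cone markers, all detected, summed to 6231 to 8080.0 CPM with PLX3397 and 4768 to 6524 CPM with ZVAD-fmk. With DMSO they summed to 12917 to 17356 CPM. Rod markers summed to 1207 to 2352 CPM with PLX3397 and 1626 to 2113 CPM with ZVAD-fmk, against 5436 to 6444 CPM with DMSO. For dividing cell markers the sums were 625 to 1091 CPM and 832 to 899 CPM, against 1834 to 2292 CPM with DMSO. Endothelial markers, given below, were higher with both drugs. The part of these lists in the result was not tested.

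Cav1 was higher with ZVAD-fmk, at 232, 210.5 and 209 CPM, against 115, 112 and 126 CPM with DMSO, a 1.84-fold difference without overlap (log2 fold change 0.88 ± 0.16 SE, adjusted p = 0.0024). With PLX3397 it stood at 116, 140.3 and 130.0 CPM and was not called (0.13 ± 0.16, adjusted p = 0.58). Cav2 was level across the treatments, at 30.4, 30.7 and 33.9 CPM with PLX3397 and 32.9, 31.3 and 32.5 CPM with ZVAD-fmk, against 31.4, 33.8 and 34.1 CPM with DMSO, and its log2 differences had 95% CIs of -0.39 to 0.26 and -0.36 to 0.29. The ratio of cav1 to cav2 counts was highest with ZVAD-fmk, at 7.05, 6.73 and 6.43, against 3.67, 3.32 and 3.70 with DMSO (exact two-sided permutation p = 0.1, 0.123 adjusted). The 15 endothelial markers, cells that also carry caveolae, were all above 0 in both groups and summed to 951 to 1016 CPM with ZVAD-fmk, against 433 to 479 CPM with DMSO. With PLX3397 the same sum was 879 to 1379.9 CPM. The list did not move as one: kdrl was at 90.9 to 106 CPM with ZVAD-fmk, against 48.5 to 54.1 CPM with DMSO, while cdh5, the endothelial cadherin, was at 14.6 to 18.3 CPM with ZVAD-fmk, against 18.5 to 23.0 CPM with DMSO. The part of these cells in the cav1 difference was not tested. The 28 microglia and macrophage genes summed to 156 to 185 CPM with PLX3397 and 244 to 272 CPM with ZVAD-fmk, against 227 to 682 CPM with DMSO, where DMSO replicate 3 was the highest. Of the 28, 26 were above 0 with PLX3397 and 26 with ZVAD-fmk, against 25 with DMSO. A mean of at least 1 CPM was reached by 14 with PLX3397 and 15 with ZVAD-fmk, against 21 with DMSO. MPEG1 (ENSDARG00000055290), a macrophage marker, was at 1.49 to 3.18 CPM with PLX3397 and 6.76 to 8.58 CPM with ZVAD-fmk, against 9.99 to 57.1 CPM with DMSO. Their part in the drug differences was not tested.

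**Figure D3:**
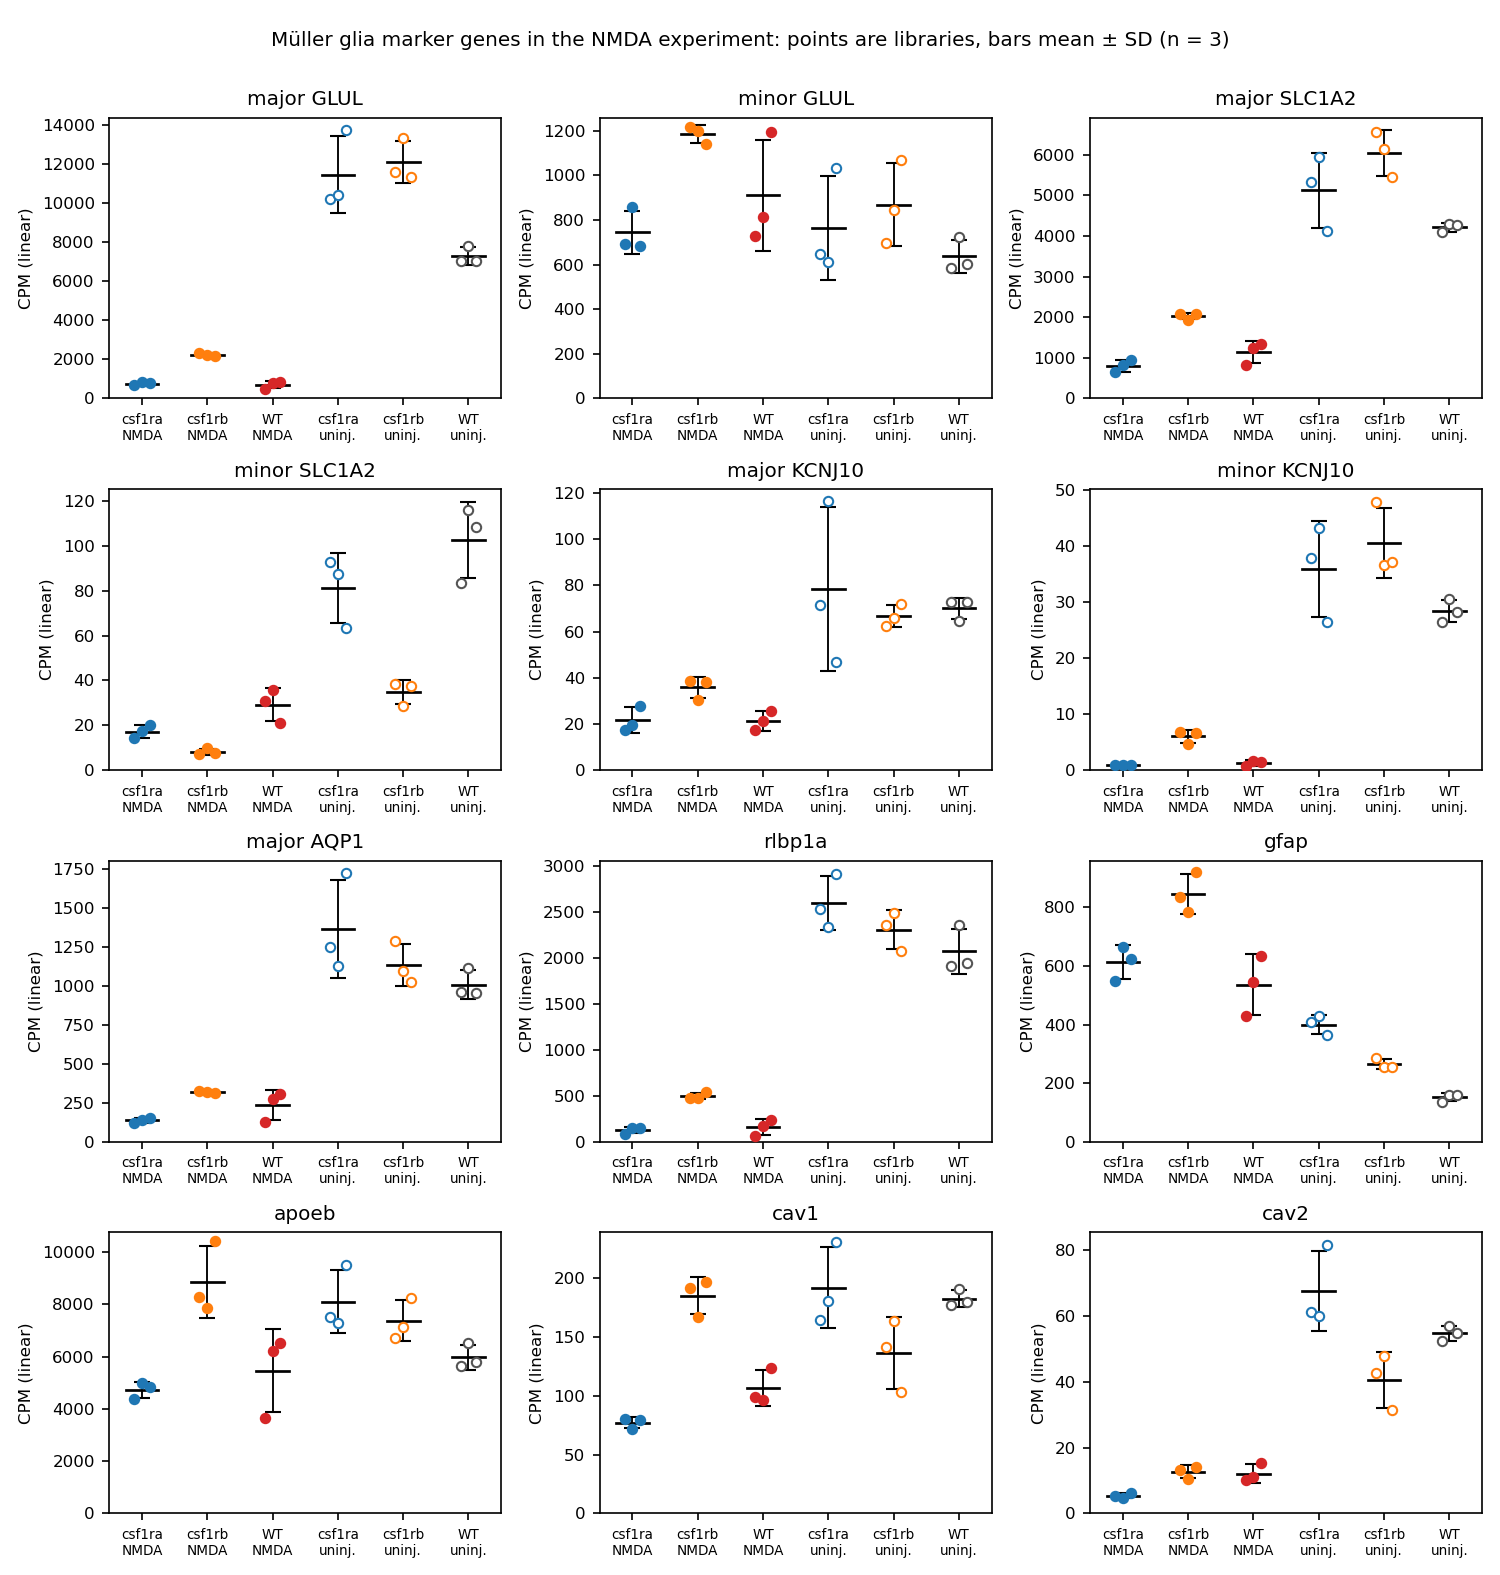
CPM of 12 rows in each library of the NMDA experiment (linear axes from 0; filled points after NMDA, open points uninjured, line and bar mean ± SD, n = 3 per group). Major GLUL, rlbp1a and minor KCNJ10 are low after NMDA in all genotypes and highest among the NMDA groups in csf1rb mutants, while gfap is lowest in uninjured wild type.

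After NMDA most of the rows were lower than in uninjured retinas in all 3 genotypes. In wild type 9 of 12 rows tested fell and 2 rose, where 34.3% of the 20254 genes tested fell and 35.6% rose (69.9% either way). In csf1ra mutants 10 fell and 1 rose, where 37.1% of genes fell and 36.4% rose (73.5% either way), and in csf1rb mutants 8 fell and 2 rose, where 33.5% fell and 37.0% rose (70.5% either way). Minor AQP1 was removed by the filter on low counts here. The median log2 fold change of the 12 rows was -1.85 in wild type, -2.46 in csf1ra mutants and -1.63 in csf1rb mutants, beside 0.015, -0.014 and 0.061 over all genes tested. Other marker lists moved with NMDA. In wild type the dividing cell markers summed to 4093 to 4161 CPM after NMDA, against 47.3 to 52.8 CPM uninjured, the genes of Müller glia reprogramming to 5389 to 7682 CPM, against 1522 to 1746 CPM uninjured, and the amacrine markers to 1225 to 1414 CPM, against 4651 to 4959 CPM uninjured. Their part in the falls was not tested.

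Major GLUL had 489.8, 793 and 849 CPM in wild type after NMDA, against 7061, 7807 and 7017 CPM in uninjured wild type, a 10.3-fold fall without overlap (log2 fold change -3.36 ± 0.20 SE, adjusted p = 1.5e-10). In csf1ra mutants it had 669, 844 and 774 CPM after NMDA, against 10207, 10418 and 13724 CPM uninjured (log2 fold change -3.91 ± 0.20 SE, adjusted p = 2.7e-11). In csf1rb mutants it had 2320.2, 2240.0 and 2162 CPM after NMDA, against 11618, 13335 and 11327 CPM uninjured (log2 fold change -2.43 ± 0.19 SE, adjusted p = 5.0e-09). The NMDA libraries of csf1rb mutants were above all others after NMDA. Minor GLUL had 726, 812 and 1193 CPM in wild type after NMDA, against 585, 722 and 604 CPM uninjured, and rose (0.52 ± 0.21, adjusted p = 0.041), a call lost without WT NMDA replicate 3 (0.27, adjusted p = 0.28), without WT uninjured replicate 1 (0.46, adjusted p = 0.12) and without WT uninjured replicate 3 (0.48, adjusted p = 0.11). It was not called in csf1ra mutants (-0.035 ± 0.21, adjusted p = 0.89) or in csf1rb mutants (0.45 ± 0.21, adjusted p = 0.072). The count of major over minor GLUL was 0.674, 0.977 and 0.711 in wild type after NMDA, against 12.1, 10.8 and 11.6 uninjured, so that the row with the higher count changed in wild type (exact two-sided permutation p = 0.1, 0.123 adjusted). In csf1ra mutants after NMDA the ratio was 0.964, 0.985 and 1.13. In csf1rb mutants after NMDA it was 1.91, 1.87 and 1.90, so major GLUL kept the higher count there.

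Both KCNJ10 rows fell, and whether their falls differ was not tested. Minor KCNJ10 had 0.737, 1.64 and 1.38 CPM in wild type after NMDA, against 26.5, 30.4 and 28.2 CPM uninjured, a 22.8-fold fall (log2 fold change -4.51 ± 0.25 SE, adjusted p = 7.2e-11). It fell 38.6-fold in csf1ra mutants (-5.27 ± 0.26, adjusted p = 1.4e-11). The fall was 6.74-fold among csf1rb mutants (-2.75 ± 0.21, adjusted p = 4.7e-09). Major KCNJ10 had 17.2, 21.3 and 25.8 CPM in wild type after NMDA, against 72.7, 64.6 and 72.8 CPM uninjured (log2 fold change -1.71 ± 0.25 SE, adjusted p = 1.1e-05). None of the injured libraries of either row reached an uninjured one of the same genotype. Major SLC1A2 fell in wild type (-1.89 ± 0.19, adjusted p = 1.1e-07), csf1ra mutants (-2.68 ± 0.20, adjusted p = 1.5e-09) and csf1rb mutants (-1.58 ± 0.19, adjusted p = 8.2e-07). Major AQP1 fell in wild type (-2.11 ± 0.24, adjusted p = 6.6e-07), csf1ra mutants (-3.33 ± 0.26, adjusted p = 3.0e-09) and csf1rb mutants (-1.82 ± 0.24, adjusted p = 2.9e-06). Minor SLC1A2 fell as well, to 30.8, 35.5 and 21.1 CPM in wild type after NMDA, against 83.5, 116 and 109 CPM uninjured (-1.82 ± 0.21, adjusted p = 4.9e-07), while the 16 cone markers summed to 2909 to 5315 CPM after NMDA, against 7929 to 10103 CPM uninjured, whose part was not tested.

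Rlbp1a had 64.2, 173 and 233 CPM in wild type after NMDA, against 1918, 2358 and 1949 CPM uninjured (log2 fold change -3.73 ± 0.34 SE, adjusted p = 3.4e-08). In csf1ra mutants it had 86.2, 149 and 147 CPM after NMDA, against 2533, 2340.2 and 2919 CPM uninjured (log2 fold change -4.35 ± 0.35 SE, adjusted p = 5.3e-09). In csf1rb mutants it had 478, 475 and 540.1 CPM after NMDA, against 2364, 2494 and 2077 CPM uninjured (log2 fold change -2.22 ± 0.32 SE, adjusted p = 7.8e-06). Wild-type NMDA replicate 1 was the lowest library of all for rlbp1a and the lowest of its group for 10 of the 12 rows.

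Gfap rose after NMDA in each genotype. It had 428, 546 and 635 CPM in wild type after NMDA, against 135, 160.4 and 159 CPM uninjured, a 3.54-fold rise (log2 fold change 1.82 ± 0.14 SE, adjusted p = 5.5e-09). In csf1ra mutants it had 549, 665 and 622 CPM after NMDA, against 407, 428 and 365 CPM uninjured, a 1.53-fold rise (log2 fold change 0.61 ± 0.14 SE, adjusted p = 7.6e-04). In csf1rb mutants it had 834, 783 and 919.8 CPM after NMDA, against 286, 255 and 255 CPM uninjured, a 3.19-fold rise (log2 fold change 1.67 ± 0.14 SE, adjusted p = 1.5e-08). In order of mean level the groups ran from csf1rb mutants after NMDA (846 ± 69.1 CPM, SD, n = 3) through csf1ra mutants (612 ± 58.6) and wild type after NMDA (536 ± 104) to uninjured csf1ra mutants (399.9 ± 32.0), csf1rb mutants (265 ± 18.2) and wild type (152 ± 14.0). Neighbours in this order did not overlap, except csf1ra mutants and wild type after NMDA. Apoeb was called only in csf1ra mutants, where it had 4391, 4971 and 4831 CPM after NMDA, against 7516, 7290.4 and 9509 CPM uninjured (log2 fold change -0.78 ± 0.19 SE, adjusted p = 0.0016). Its values were -0.13 ± 0.19, adjusted p = 0.55 in wild type and 0.27 ± 0.19, adjusted p = 0.23 in csf1rb mutants.

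Cav1 and cav2 parted after NMDA. Cav2 had 10.1, 10.9 and 15.3 CPM in wild type after NMDA, against 52.4, 56.8 and 54.8 CPM uninjured (log2 fold change -2.18 ± 0.19 SE, adjusted p = 2.0e-08), and cav1 had 98.6, 96.5 and 124 CPM, against 177, 190.5 and 179 CPM uninjured (log2 fold change -0.78 ± 0.16 SE, adjusted p = 3.3e-04). In csf1ra mutants cav2 had 5.38, 4.51 and 6.22 CPM after NMDA, against 61.2, 59.9 and 81.5 CPM uninjured (log2 fold change -3.65 ± 0.21 SE, adjusted p = 6.4e-11), and cav1 fell less (-1.32 ± 0.16, adjusted p = 1.0e-06). In csf1rb mutants cav2 fell (-1.68 ± 0.19, adjusted p = 3.8e-07) while cav1 was higher, at 191, 167 and 197 CPM after NMDA, against 141, 164 and 103 CPM uninjured (0.44 ± 0.16, adjusted p = 0.019). That rise of cav1 was lost without csf1rb NMDA replicate 1 (0.42, adjusted p = 0.052), without csf1rb NMDA replicate 4 (0.40, adjusted p = 0.06) and without csf1rb uninjured replicate 3 (0.28, adjusted p = 0.12) and when only those 2 groups were fitted (0.40, adjusted p = 0.054). The count of cav1 over cav2 was 14.9, 15.9 and 12.8 in csf1ra mutants and 14.4, 15.8 and 13.9 in csf1rb mutants after NMDA, against 9.80, 8.86 and 8.11 in wild type after NMDA. Uninjured it was 2.69, 3.01 and 2.83 in csf1ra mutants, 3.32, 3.41 and 3.29 in csf1rb mutants and 3.38, 3.35 and 3.27 in wild type. Each NMDA library was above each uninjured library, and each mutant NMDA library above each wild-type NMDA library (exact two-sided permutation p = 0.1 for each comparison, 0.123 adjusted).

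**Figure D4:**
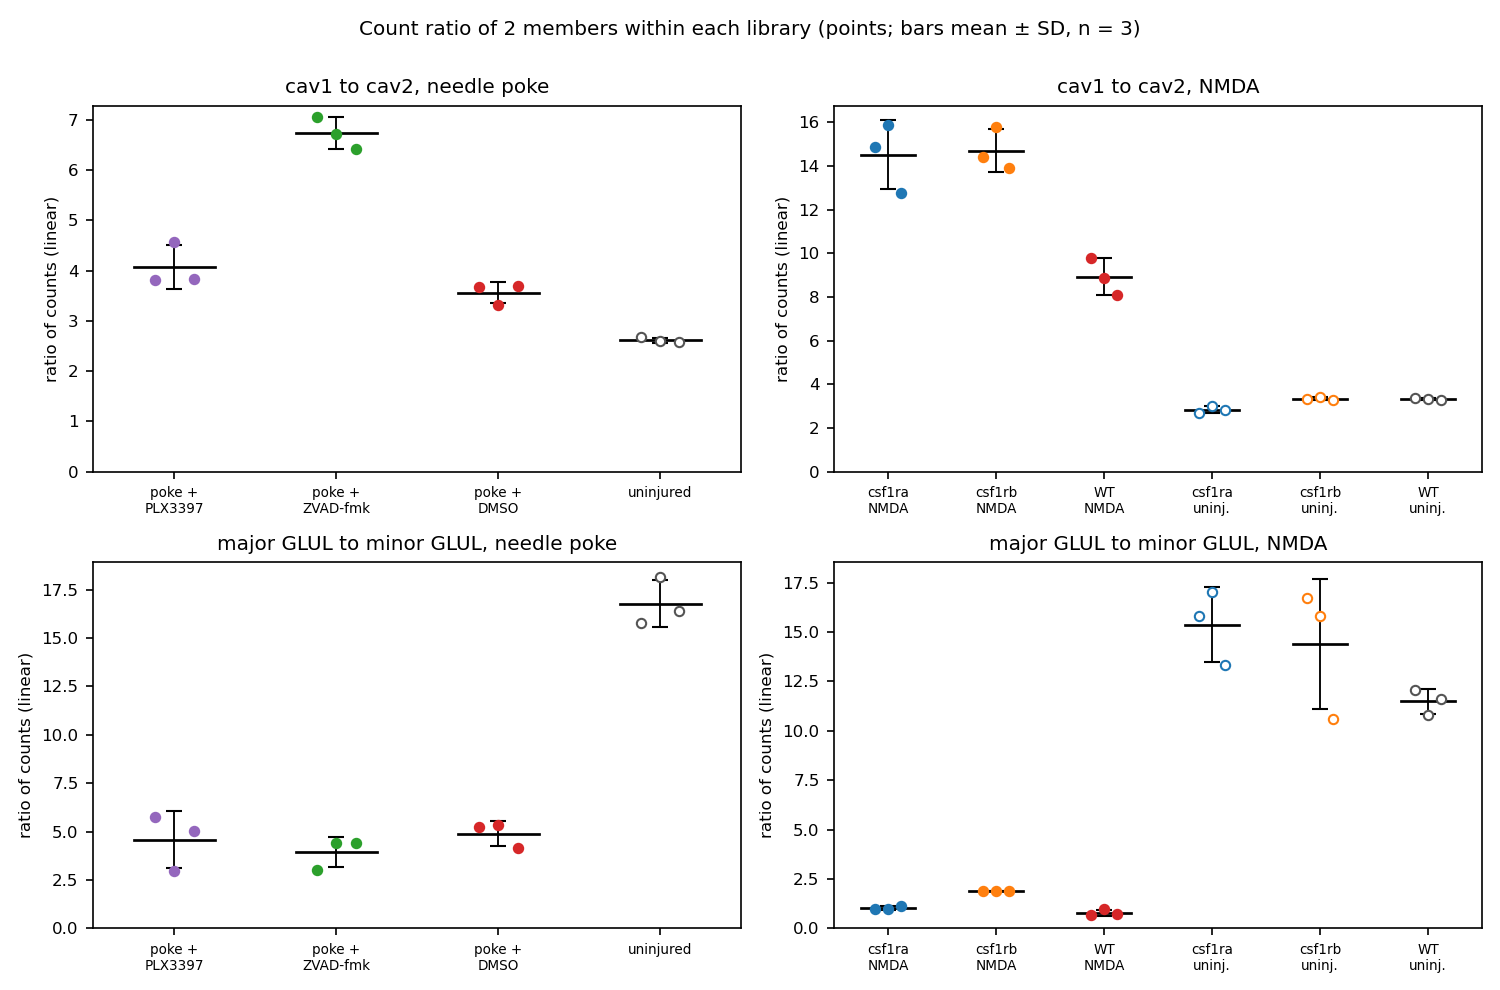
Ratio of the counts of cav1 to cav2 (top) and of major to minor GLUL (bottom) within each library (linear axes from 0; filled points injured, open points uninjured, line and bar mean ± SD, n = 3 per group). The cav1 to cav2 ratio is highest after NMDA in the mutants, and the GLUL ratio is low in every injured group.

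The comparison of mutants with wild type after NMDA asked how the injured retinas of the mutant fish differ from those of the wild-type fish. Most rows were higher in csf1rb mutants, and a few were lower in csf1ra mutants. In csf1rb mutants 8 of 12 rows were higher than in wild type after NMDA and 1 lower, where 11.9% of all genes tested were higher and 11.4% lower (23.2% either way). The median log2 difference of the 12 rows was 0.72, beside 0.0019 over all genes. In csf1ra mutants 0 were higher and 4 lower, where 9.24% of genes tested were higher and 13.2% lower (22.4% either way), and the median of the 12 rows was -0.36, beside -0.012 over all genes. Of the 9 rows found by the rule, 7 were higher in csf1rb mutants and 2 lower in csf1ra mutants. Those 2, cav2 and cav1, are near the share of all genes called either way. The call of cav1 was lost in 6 of 6 fits that left out 1 library each. Both comparisons share the wild-type libraries, and csf1ra and csf1rb mutants were not tested against each other.

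In csf1rb mutants minor KCNJ10 stood at 6.87, 4.68 and 6.57 CPM after NMDA, against 0.737, 1.64 and 1.38 CPM in wild type, 4.83-fold higher (log2 fold change 2.27 ± 0.25 SE, adjusted p = 7.5e-06). Rlbp1a, at 478, 475 and 540.1 CPM in csf1rb mutants, against 64.2, 173 and 233 CPM in wild type, was 3.18-fold higher (log2 fold change 1.67 ± 0.31 SE, adjusted p = 0.001). Major GLUL was 3.15-fold higher (log2 fold change 1.66 ± 0.19 SE, adjusted p = 9.4e-06). All 3 were higher in 3 of 3 mutant libraries and still below every uninjured library. Cav1 (0.80 ± 0.16, adjusted p = 0.0016), major SLC1A2 (0.83 ± 0.18, adjusted p = 0.0034) and gfap (0.66 ± 0.14, adjusted p = 0.0026) were also higher. Apoeb was higher (0.70 ± 0.19, adjusted p = 0.014), a call lost without WT NMDA replicate 1 (0.48, adjusted p = 0.064) and without csf1rb NMDA replicate 4 (0.57, adjusted p = 0.076), and major KCNJ10 was higher (0.74 ± 0.25, adjusted p = 0.039), a call lost without WT NMDA replicate 1 (0.60, adjusted p = 0.15), without WT NMDA replicate 2 (0.74, adjusted p = 0.097), without csf1rb NMDA replicate 1 (0.68, adjusted p = 0.11) and without csf1rb NMDA replicate 4 (0.69, adjusted p = 0.1). Minor SLC1A2 went the other way, at 7.32, 9.77 and 7.45 CPM in csf1rb mutants after NMDA, against 30.8, 35.5 and 21.1 CPM in wild type (log2 fold change -1.83 ± 0.21 SE, adjusted p = 1.4e-05). Other marker lists separated the same groups. In csf1rb mutants the cone markers summed to 1343 to 2098 CPM, against 2909 to 5315 CPM in wild type, the rod markers to 733 to 1746 CPM, against 3826 to 6596 CPM, and the bipolar markers to 534 to 689 CPM, against 845 to 1119 CPM. Dividing cell markers summed to 3138 to 3708 CPM in csf1rb mutants, against 4093 to 4161 CPM in wild type. Erythrocyte markers summed to 1121 to 1239 CPM in csf1rb mutants, against 425 to 751 CPM in wild type, and endothelial markers to 553 to 733 CPM, against 442 to 529 CPM. Markers of pigment epithelium and pigment cells summed to 21.3 to 59.4 CPM in csf1rb mutants, against 9.86 to 16.1 CPM in wild type. Oligodendrocyte markers summed to 75.8 to 97.7 CPM, against 39.2 to 57.7 CPM. The part of these lists in the differences of the 9 called rows was not tested. The microglia and macrophage genes summed to 248 to 270.0 CPM in csf1rb mutants and 244 to 265 CPM in csf1ra mutants, against 269 to 279 CPM in wild type after NMDA. Of the 28, 28 were above 0 in csf1rb mutants, 26 in csf1ra mutants and 27 in wild type, but a mean of at least 1 CPM was reached by 6 in csf1rb mutants and 10 in csf1ra mutants, against 16 in wild type. MPEG1 (ENSDARG00000055290) was at 0.375 to 0.671 CPM in csf1rb mutants and 1.16 to 1.73 CPM in csf1ra mutants after NMDA, against 4.40 to 6.82 CPM in wild type. The part of these cells was not tested.

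In csf1ra mutants after NMDA cav2 stood at 5.38, 4.51 and 6.22 CPM, against 10.1, 10.9 and 15.3 CPM in wild type, 2.24-fold lower without overlap (log2 fold change -1.17 ± 0.20 SE, adjusted p = 5.3e-04). Major AQP1 was lower (-0.78 ± 0.24, adjusted p = 0.024), with overlap through wild-type NMDA replicate 1, and was not called in 4 of 6 fits that left out 1 library each (log2 fold change -0.81 to -0.55, adjusted p 0.06 to 0.14). Minor SLC1A2 was lower (-0.76 ± 0.20, adjusted p = 0.013), a call lost without WT NMDA replicate 2 (-0.60, adjusted p = 0.076) and without csf1ra NMDA replicate 1 (-0.61, adjusted p = 0.089). Cav1 was lower (-0.46 ± 0.16, adjusted p = 0.045), a call lost in 6 of 6 fits that left out 1 library each (log2 fold change -0.53 to -0.34, adjusted p 0.058 to 0.2). Without WT NMDA replicate 1, rlbp1a (-0.67, adjusted p = 0.035) and major SLC1A2 (-0.70, adjusted p = 0.011) were called lower in csf1ra mutants. That library was the lowest of its group for both rows. Leaving it out raises the wild-type mean by construction, so these adjusted p-values are not evidence of a difference. Major GLUL had 669, 844 and 774 CPM in csf1ra mutants, all within the wild-type range, and its log2 difference of 0.10 had a 95% CI of -0.28 to 0.48. As in csf1rb mutants, other marker lists separated the groups. Cone markers summed to 2130 to 2639 CPM in csf1ra mutants, against 2909 to 5315 CPM in wild type. Rod markers summed to 1434 to 2302 CPM, against 3826 to 6596 CPM, and bipolar markers to 393 to 519 CPM, against 845 to 1119 CPM. Endothelial markers were higher, at 610 to 650 CPM, against 442 to 529 CPM. Markers of pigment epithelium and pigment cells were higher too, at 37.6 to 69.1 CPM, against 9.86 to 16.1 CPM. The part of these lists was not tested.

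Before injury gfap already differed. It had 407, 428 and 365 CPM in uninjured csf1ra mutants and 286, 255 and 255 CPM in uninjured csf1rb mutants, against 135, 160.4 and 159 CPM in uninjured wild type. Every mutant library was above every wild-type library, by 2.64-fold in csf1ra mutants (log2 fold change 1.40 ± 0.14 SE, adjusted p = 6.2e-06) and 1.75-fold in csf1rb mutants (log2 fold change 0.81 ± 0.14 SE, adjusted p = 4.7e-04). In csf1ra mutants 2 of 12 rows were higher and 0 lower, where 7.94% of genes tested were higher and 6.74% lower (14.7% either way). In csf1rb mutants 3 were higher and 1 lower, where 14.5% were higher and 12.4% lower (26.9% either way). Major GLUL was higher in csf1ra mutants (0.65 ± 0.18, adjusted p = 0.023), a call lost without WT uninjured replicate 1 (0.63, adjusted p = 0.083), without WT uninjured replicate 3 (0.62, adjusted p = 0.087) and without csf1ra uninjured replicate 5 (0.50, adjusted p = 0.071). It was also higher in csf1rb mutants (0.73 ± 0.18, adjusted p = 0.0067). Major SLC1A2 was higher in csf1rb mutants (0.52 ± 0.18, adjusted p = 0.044), a call lost in 5 of 6 fits that left out 1 library each (log2 fold change 0.46 to 0.53, adjusted p 0.095 to 0.13) and held only without csf1rb uninjured replicate 3. In uninjured csf1ra mutants the rod markers summed to 6607 to 10428 CPM, against 15782 to 17928 CPM in wild type, and the erythrocyte markers to 3317 to 5133 CPM, against 1506 to 1839.7 CPM, and their part was not tested. Replicate 5 of the uninjured csf1ra mutants stood apart from replicates 1 and 4: its bipolar markers summed to 2399.8 CPM, against 1164 and 1117 CPM, its horizontal markers to 253 CPM, against 106 and 103 CPM, and its endothelial markers to 197 CPM, against 513 and 625 CPM. Without it gfap was still higher in uninjured csf1ra mutants (1.46, adjusted p = 4.4e-06). Minor SLC1A2 was lower in csf1rb mutants, at 38.3, 28.7 and 37.5 CPM, against 83.5, 116 and 109 CPM in wild type (log2 fold change -1.56 ± 0.20 SE, adjusted p = 3.4e-05). The cone markers summed to 3514 to 5391 CPM in uninjured csf1rb mutants, against 7929 to 10103 CPM in wild type, and the 18 rod markers to 1812 to 3679 CPM, against 15782 to 17928 CPM. Their part was not tested.

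**Figure D5:**
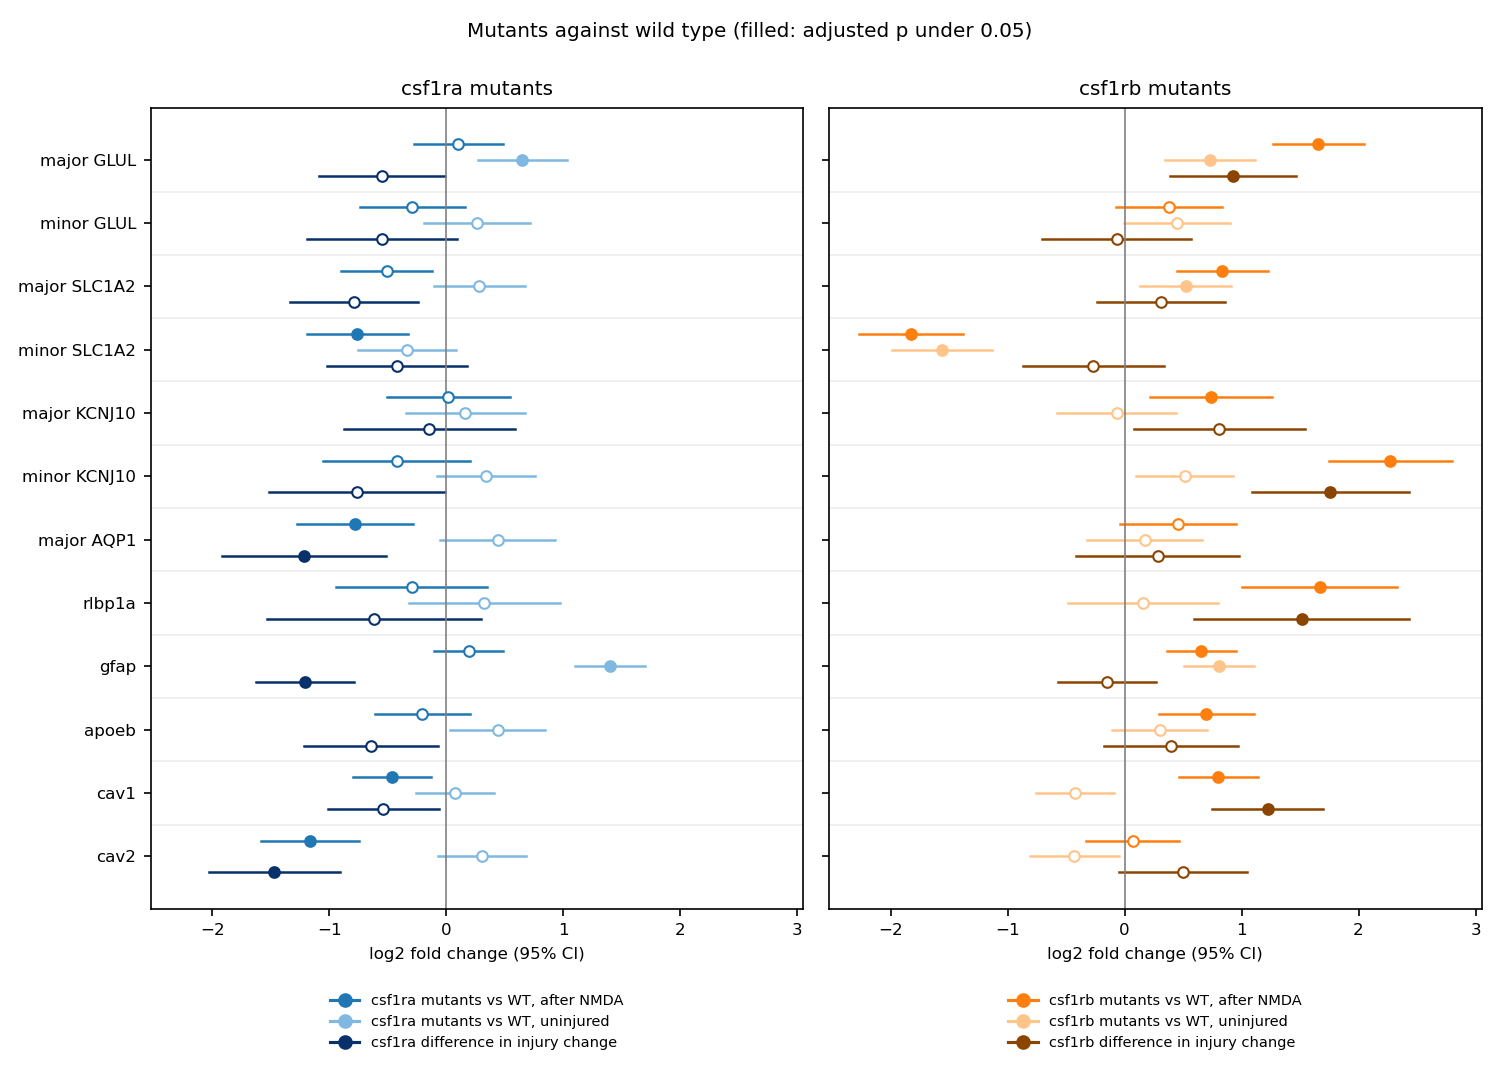
Log2 difference of csf1ra (left) and csf1rb (right) mutants from wild type after NMDA and uninjured, and the difference between mutant and wild type in the change with NMDA (points, with bars for the 95% CI; filled points have an adjusted p under 0.05). In csf1rb mutants major GLUL, minor KCNJ10, rlbp1a and cav1 lie right of 0 for the difference in change, and in csf1ra mutants gfap, cav2 and major AQP1 lie left of 0.

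Whether the NMDA change itself differed between mutant and wild type was tested as an interaction, the log2 fold change with NMDA in mutants minus that in wild type. In csf1rb mutants 4 of 12 rows had a more positive change than wild type and 0 a more negative one, where 4.1% and 4.07% of all genes tested did (8.18% either way). Minor KCNJ10 (1.76 ± 0.32, adjusted p = 0.003) and cav1 (1.22 ± 0.23, adjusted p = 0.0034) held in every fit that left out 1 library. Rlbp1a (1.51 ± 0.43, adjusted p = 0.041) was not called in 10 of 12 fits that left out 1 library each (log2 fold change 1.41 to 1.59, adjusted p 0.056 to 0.092), and major GLUL (0.93 ± 0.26, adjusted p = 0.034) was not called in 9 of 12 fits that left out 1 library each (log2 fold change 0.72 to 0.96, adjusted p 0.054 to 0.08). In csf1ra mutants 3 rows had a more negative change and 0 a more positive one, where 3.27% and 2.56% of genes tested did (5.83% either way). Gfap rose less (-1.21 ± 0.20, adjusted p = 0.0024) and cav2 fell more (-1.47 ± 0.27, adjusted p = 0.0048), and both held in every fit that left out 1 library. For gfap the smaller rise started from a higher uninjured level in csf1ra mutants. After NMDA gfap was not called between csf1ra mutants (mean 612 CPM) and wild type (536 CPM), and their ranges overlapped. Major AQP1 fell more (-1.22 ± 0.33, adjusted p = 0.039), but was not called in 9 of 12 fits that left out 1 library each (log2 fold change -1.30 to -0.99, adjusted p 0.053 to 0.11). Without WT NMDA replicate 1 the csf1ra interaction was called for 7 rows, since rlbp1a (-0.9958, adjusted p = 0.049), apoeb (-0.87, adjusted p = 0.033), major GLUL (-0.76, adjusted p = 0.048) and major SLC1A2 (-0.98, adjusted p = 0.023) were then called too. Leaving out the lowest wild-type library for these rows raises the wild-type mean by construction. The gained calls are therefore not evidence of a difference.

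Other genes of the same pathways were counted from lists, none of which was tested as a set. The genes named from the lists were picked after their values were seen and do not stand for their list. Over all genes tested 18.2% rose and 13.4% fell after poke with DMSO, and 35.6% rose and 34.3% fell after NMDA in wild type. Of the glutamate and glutamine list, 1 rose and 2 fell of 15 tested after poke with DMSO and 4 rose and 9 fell of 15 tested after NMDA in wild type. After poke these counts are near or below the all-gene shares, and after NMDA the share that fell is above. SLC38A3 (ENSDARG00000091061), a glutamine transporter, fell after poke with DMSO (-1.74 ± 0.24, adjusted p = 9.2e-05) and after NMDA in wild type (-2.94 ± 0.23, adjusted p = 4.7e-09). SLC1A3 (ENSDARG00000043148), another glutamate transporter of glia, rose: its range was 1.88 to 2.85 CPM after poke with DMSO, against 0 to 0.163 CPM uninjured, and 4.42 to 9.12 CPM in wild type after NMDA, against 0.248 to 0.550 CPM uninjured (adjusted p = 3.7e-05 and 3.0e-06). Of the potassium and water channel list, 4 rose and 3 fell of 19 tested after poke and 1 rose and 13 fell of 17 tested after NMDA in wild type. After poke these counts are near the all-gene shares, and after NMDA the share that fell is above and the share that rose below. AQP4, the main glial water channel of mammals, fell after poke with DMSO (-0.98 ± 0.16, adjusted p = 3.0e-04) and was higher with PLX3397 (0.64 ± 0.15, adjusted p = 0.0064) and with ZVAD-fmk (0.90 ± 0.15, adjusted p = 0.0016) than with DMSO. After NMDA AQP4 fell in wild type (-2.98 ± 0.23, adjusted p = 4.6e-09), was higher in csf1rb mutants than in wild type (1.22 ± 0.22, adjusted p = 7.7e-04) and had a positive csf1rb interaction (1.19 ± 0.31, adjusted p = 0.024). KCNK2 (ENSDARG00000055123), a background potassium channel, fell after poke with DMSO (-1.34 ± 0.22, adjusted p = 3.9e-04) and after NMDA in wild type (-4.72 ± 0.53, adjusted p = 4.4e-07). None of the 4 genes of the channel list that rose after poke is named here.

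Of the retinoid list, 3 rose and 7 fell of 27 tested after poke with DMSO and 3 rose and 13 fell of 25 tested after NMDA in wild type. The share that fell is above that of all genes in both, and the share that rose is below. RGR (ENSDARG00000054890), a retinal-isomerising opsin of Müller glia and pigment epithelium, fell after poke with DMSO (-1.25 ± 0.15, adjusted p = 4.3e-05) and after NMDA in wild type (-3.09 ± 0.20, adjusted p = 5.5e-10). RDH10 (ENSDARG00000058730), a retinol dehydrogenase, fell after poke with DMSO (-1.61 ± 0.22, adjusted p = 7.7e-05) and was higher with PLX3397 (1.51 ± 0.21, adjusted p = 1.9e-04) and ZVAD-fmk (1.18 ± 0.21, adjusted p = 0.0022) than with DMSO. STRA6, a retinol uptake receptor, rose after poke with DMSO (3.50 ± 0.44, adjusted p = 4.4e-05) and after NMDA in wild type (5.37 ± 0.56, adjusted p = 1.8e-07). Of the filament and gliosis list, 7 rose and 4 fell of 22 tested after poke with DMSO and 7 rose and 10 fell of 21 tested after NMDA in wild type. The share that rose is above that of all genes after poke and near it after NMDA, where the share that fell is above. The filament genes did not move as one: nes, which encodes nestin, rose after poke with DMSO (3.25 ± 0.17, adjusted p = 2.6e-08) and after NMDA in wild type (5.93 ± 0.26, adjusted p = 4.5e-12), while VIM (ENSDARG00000044501), a vimentin row, fell after poke with DMSO (-1.0046 ± 0.17, adjusted p = 4.6e-04) and after NMDA in wild type (-2.02 ± 0.25, adjusted p = 1.2e-06). STAT3, a transcription factor of the injury response, rose after poke with DMSO (1.42 ± 0.13, adjusted p = 4.7e-06) and after NMDA in wild type (1.84 ± 0.21, adjusted p = 4.3e-07), and like gfap it was higher in uninjured csf1ra mutants (1.1004 ± 0.20, adjusted p = 0.0016) and csf1rb mutants (1.78 ± 0.21, adjusted p = 1.1e-05) than in uninjured wild type.

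Of the lipid list, 5 rose and 3 fell of 18 tested after poke with DMSO and 5 rose and 7 fell of 17 tested after NMDA in wild type. After poke the share that rose is above that of all genes, and after NMDA both are near. FABP7 (ENSDARG00000007697), a fatty acid binding protein of radial glia, rose after poke with DMSO (1.28 ± 0.23, adjusted p = 7.5e-04) and after NMDA in wild type (3.33 ± 0.33, adjusted p = 9.2e-08). None of the lipid genes that fell is named here. Of the caveolae list, 7 rose and 3 fell of 13 tested after poke with DMSO and 4 rose and 2 fell of 13 tested after NMDA in wild type. After poke both shares are above those of all genes, and after NMDA they are near or below. CAVIN2 (ENSDARG00000027611), which helps shape caveolae, fell after poke with DMSO (-1.31 ± 0.19, adjusted p = 1.4e-04) and after NMDA in wild type (-2.54 ± 0.21, adjusted p = 1.0e-08). CAVIN1 (ENSDARG00000059362), the core coat protein, rose after poke with DMSO (0.64 ± 0.17, adjusted p = 0.0098) and was higher than with DMSO both with PLX3397 (0.84 ± 0.16, adjusted p = 0.0017) and with ZVAD-fmk (1.38 ± 0.16, adjusted p = 1.3e-04). After NMDA CAVIN1 was not called in wild type (0.14 ± 0.19, adjusted p = 0.52).

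The genes whose log2 CPM followed a member most closely were found over the 12 libraries of the needle poke experiment and the 18 of the NMDA experiment. These correlations describe libraries that share their injury and depth, and carry no test. Major AQP1 was closest to MLC1 (r = 0.997) and SBSPON (r = 0.993) over the 12 libraries, where MLC1 encodes a membrane protein of glia. Rlbp1a was closest to rasgrp4 (r = 0.994) and MLC1 (r = 0.994) over the 18 libraries. Major GLUL was closest to SLC2A1 (r = 0.997) and ATP1B4 (r = 0.996) over the 18, where SLC2A1 is a glucose transporter. Minor SLC1A2 was closest to FSCN2 (r = 0.998) and GNAT2 (r = 0.990) over the 18, where GNAT2 is the cone transducin and FSCN2 a photoreceptor fascin. Gfap was closest to sgk1 (r = 0.982) and GMPPA (r = 0.979) over the 12 and to CLIC1 (r = 0.977) and FSCN1 (r = 0.964) over the 18. Cav2 was closest to zgc:110699 (r = 0.995) and CSRP2 (r = 0.990) over the 12, and cav1 was not among the 2 closest genes in either experiment. Minor GLUL had no partner as close, with rhoab (r = 0.898) and HADHB (r = 0.884) over the 12 libraries and HSDL2 (r = 0.893) and ENO3 (r = 0.868) over the 18.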

How the data were processed

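RNA-seq of retina was analysed in 2 tables of expected counts per Ensembl gene, which the authors deposited as whole numbers. Per the submitters' processing notes cutadapt 4.8, FastQC 0.11.8, STAR 2.7.8a, RSEM 1.3.3 and GRCz11 were used. Estimated counts can split reads between paralogs, so the GLUL, KCNJ10, SLC1A2 and AQP1 rows are uncertain. Of the needle poke columns, 9 matched no sample and were not used. Each experiment was fitted once over all its groups with edgeR 4.0.16 (R 4.3.3) on whole-number counts: TMM factors, filterByExpr by group, robust quasi-likelihood F tests and Benjamini-Hochberg adjustment over all genes tested, called at 0.05. SEs are the log2 fold change over the square root of F. Ratios were tested by exact two-sided permutation. DESeq2 1.42.0, other scalings, no filter, a replicate block, fewer groups and left-out libraries were alternatives. Symbols came from a gene name table, with 29201 of 32520 IDs matched. Members and lists were chosen with earlier results of these data known. Named pathway genes were picked after their values were seen. The fit was tested on simulated data. Precision is limited by 3 libraries a group.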

Additional observations from a re-analysis of the deposited data

Results flagged for a closer look

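The change with NMDA differed between mutant and wild type for 7 genes, by the interaction term of edgeR's quasi-likelihood fit. In csf1ra mutants the log2 fold change with NMDA was lower than in wild type by -1.22 for major AQP1, by -1.21 for gfap and by -1.47 for cav2. For gfap the uninjured level was higher in csf1ra mutants than in wild type, and the levels after NMDA overlapped (means 612 and 536 CPM). In csf1rb mutants it was higher than in wild type by 1.51 for rlbp1a, by 0.93 for major GLUL, by 1.22 for cav1 and by 1.76 for minor KCNJ10. All 7 rest on 3 libraries in each of 4 groups. Of the 12 fits that left out 1 library, the call was lost in 10 for rlbp1a, in 9 for major GLUL and in 9 for major AQP1, and in 0 for gfap, cav2, cav1 and minor KCNJ10.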

How the results depend on the processing

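Of the values under settings other than a left-out library, 1017 kept their direction and stayed called or stayed not called. Another 49 gained a call, 15 lost one and 18 changed sign. The values that were kept include those called in neither fit. With a library left out 1070 were kept, 16 gained, 68 lost and 28 changed sign. No value that changed sign was called. No clear pairing by replicate number was seen. In the needle poke experiment 3 of 18 pairs with the same number had r over 0.1, against 3 of 36 with different numbers. Their median r was -0.030 and 0.018. In the NMDA experiment these were 2 of 32 and 8 of 103, with median r of 0.012 and 0.0024.

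Members called for PLX3397 against DMSO were 2, and 4 with library size only, 6 without the 4 libraries that stand apart and 4 with DESeq2. For ZVAD-fmk against DMSO they were 3, and 6 without those 4 libraries, 5 with DESeq2 and 5 with only those groups. For uninjured csf1ra mutants they were 2, and 1 with the replicate block. For uninjured csf1rb mutants they were 4, and 7 with only those groups. Over all genes, ZVAD-fmk against DMSO gave 3981, and 6154 without the 4 libraries. Uninjured csf1ra mutants gave 2975, and 1630 with the replicate block and 1537 with only those groups. The csf1ra interaction gave 1181, and 1897 with the block and 1926 with DESeq2. The csf1rb interaction gave 1656, and 2513 with DESeq2 and 2686 with only those groups.

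With 1 library left out, all genes called were 2344 to 3192 for ZVAD-fmk against DMSO, 597 to 1610.0 for the csf1ra interaction, 984 to 1783 for the csf1rb interaction and 1595 to 4380.0 for uninjured csf1ra mutants. Members called were 2 to 7 for the csf1ra interaction, 2 to 4 for the csf1rb interaction, 1 to 5 for csf1ra mutants after NMDA and 1 to 2 for uninjured csf1ra mutants.

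Library size only moved the median of all genes by -0.13 to 0.28 on the log2 scale. Under it the sign changed for PLX3397 against DMSO in major AQP1 (0.036) and cav2 (0.086), and for ZVAD-fmk against DMSO in major AQP1 (0.0047), cav2 (0.060) and minor GLUL (0.011). Against uninjured retinas it changed for minor SLC1A2 with DMSO (0.053), minor GLUL with PLX3397 (0.071), and major KCNJ10 (0.11) and minor GLUL (0.22) with ZVAD-fmk. After NMDA it changed for major KCNJ10 (-0.082) and major GLUL (-0.0030) in csf1ra mutants and cav2 (-0.029) in csf1rb mutants against wild type. Without the 4 libraries it changed for minor SLC1A2 with DMSO (0.069) and major KCNJ10 with ZVAD-fmk (0.069) against uninjured. With no filter minor GLUL with NMDA in csf1ra mutants was 0.013, and with the replicate block 0.061. With the block cav1 in uninjured csf1ra mutants was -0.16 and minor GLUL for the csf1rb interaction 0.090.

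With 1 library left out, log2 fold changes that crossed 0 ran as follows. Minor GLUL ran -0.033 to 0.24 with DMSO and -0.20 to 0.16 with ZVAD-fmk against uninjured, -0.27 to 0.020 for ZVAD-fmk against DMSO, -0.17 to 0.24 with NMDA in csf1ra mutants, -0.017 to 0.40 in uninjured csf1ra mutants and -0.21 to 0.18 for the csf1rb interaction. Major KCNJ10 ran -0.25 to 0.074 with ZVAD-fmk against uninjured, -0.20 to 0.18 and -0.24 to 0.43 in csf1ra mutants after NMDA and uninjured, and -0.41 to 0.26 for the csf1ra interaction. Minor AQP1 ran -0.93 to 0.30 with ZVAD-fmk and minor SLC1A2 -0.19 to 0.072 with DMSO against uninjured. Major AQP1 ran -0.26 to 0.028 for PLX3397 against DMSO and -0.014 to 0.52 for the csf1rb interaction. Apoeb ran -0.28 to 0.092 with NMDA in wild type, major GLUL -0.11 to 0.25 and rlbp1a -0.67 to 0.10 in csf1ra mutants after NMDA, cav2 -0.048 to 0.27 in csf1rb mutants after NMDA, and cav1 -0.079 to 0.18 in uninjured csf1ra mutants. The cause of these changes was not tested.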

Other observations

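Both tables have a row for egfp, which no label explains. In CPM scaled to the library total alone it took 322.5 to 446.4 in retinas with poke and PLX3397, 431.2 to 468.0 with ZVAD-fmk and 385.7 to 456.0 with DMSO, against 783.5 to 925.0 in uninjured retinas. In the NMDA experiment it took 237.2 to 321.9 in csf1ra mutants, 220.8 to 231.3 in csf1rb mutants and 256.5 to 299.9 in wild type after NMDA. Uninjured, it took 865.3 to 1168.0 in csf1ra mutants, 367.0 to 449.2 in csf1rb mutants and 617.9 to 816.3 in wild type. Which cells carry the transgene is not given in the sources used here.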
